A study of Mus musculus with 3 samples.

Results

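The 9 genes described here, *Pth*, *Gcm2*, *Casr*, *Chga*, *Vdr*, *Trh*, *Fam20a*, *Pla2g7* and *Spp1*, were drawn from the 27998 genes in the files. They were chosen by name, with measured values of these data in view, as genes of the parathyroid or of the *Pth*-expressing cells of the embryonic thymus. Their unique molecular identifiers (UMIs, each marking 1 captured RNA molecule) were counted in 3 kinds of cells: cells with at least 50 *Pth* UMIs (called *Pth*-high cells), other cells with at least 1 UMI of *Epcam*, an adhesion protein of epithelia (other *Epcam*-positive cells), and all other cells. The study compared thymic lobes of C57BL/6 mouse embryos at 13 to 13.5 days of gestation by droplet single-cell RNA sequencing, with 1 library for each of 3 genotypes. These were the control (Wild type, Tbx1+/+), Tbx1neo2/neo2, in which a neomycin cassette inserted in an intron of *Tbx1* lowers that gene in a mouse model of 22q11.2 deletion syndrome, and Foxn11089/1089, in which both copies of *Foxn1* carry a small in-frame deletion. All 3 groups came from the same strain and age, each library holds cells of trypsin-digested lobes, with no sort named, and the number of embryos in each is not given in the sources used here. No genotype had a second library, so genotypes were compared without a test, and every interval in brackets is an exact 95% interval (Poisson for a level, Clopper-Pearson for a share, conditional binomial for a ratio) that covers counting error only.

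The parathyroid and the thymus both arise from the endoderm of the third pharyngeal pouch, the parathyroid from its dorsal and the thymus from its ventral side, and the shared primordium then separates. Parathyroid fate depends on the transcription factor Gcm2, which acts with Gata3 on the gene for parathyroid hormone, and thymic fate depends on Foxn1. In the mature gland, chief cells sense blood calcium through the receptor Casr, which couples to G proteins, and store the hormone in secretory granules together with chromogranin A. Low calcium releases the hormone, and active vitamin D, acting through its receptor Vdr, lowers transcription of *Pth*. Cells that make *Pth* are also known to occur within the thymus, where some thymic cells keep or regain a parathyroid program.

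The 3 libraries held 82936619, 137498422 and 204655055 UMIs in 6410, 5759 and 12447 barcodes (control, Tbx1neo2/neo2 and Foxn11089/1089, the order used throughout). After the filters 5932, 5516 and 11772 cells were kept. The library labelled Tbx1neo2/neo2 did not have less *Tbx1* than the control: it had 656 UMIs, or 4.81 counts per 1000000 UMIs (CPM), against 114 UMIs (1.39 CPM) in the control and 1102 (5.43 CPM) in the Foxn11089/1089 library. The counts thus do not show that this library carries the mutation, and it is named by its label below. *Foxn1*, whose deletion removes few bases, gives no check of the Foxn11089/1089 label: it had 38.4, 34.6 and 76.5 CPM. Pairs of libraries shared 16, 17 and 24 kept barcodes, none of them a *Pth*-high cell in either library. Hemoglobin RNA was uneven: the summed level of 6 erythroid genes in other *Epcam*-positive cells was 2624, 5274 and 37627 CPM.

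*Pth*-high cells were counted first. The control library had 29, which was 1.14% (0.765 to 1.63%) of its 2542 *Epcam*-positive or *Pth*-high cells. The Foxn11089/1089 library had 346 of 5166, or 6.70% (6.03 to 7.41%), a share 5.87 times that of the control (4.01 to 8.90 times). The library labelled Tbx1neo2/neo2 had 1 of 1312, or 0.0762% (0.00193 to 0.424%). *Epcam* UMIs were found in 28 of the 29 control cells and in 342 of the 346 Foxn11089/1089 cells. The median *Pth*-high cell had 11608 UMIs in the control library and 25159.5 in the Foxn11089/1089 library, so that detection of weaker genes was not equally deep in both.

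*Pth*, the hormone gene (ENSMUSG00000059077, chromosome 7, 113385580 to 113388570, minus strand, GRCm38), chose these cells, and its level in them is a description. In the control the cells held 58 to 2319 *Pth* UMIs with a median of 669, and the median cell gave 6.78% of its UMIs to *Pth*. In the Foxn11089/1089 library they held 52 to 16415 with a median of 1260, and a median share of 4.66%. The control range lay within that of the Foxn11089/1089 library, which reached higher: 2 control and 82 Foxn11089/1089 cells had 2000 to 4999 *Pth* UMIs, and 0 and 19 had 5000 or more, as the plot of *Pth* UMIs per cell shows. Summed over cells, *Pth* made up 72380 CPM (71455 to 73314) in control cells and 47490 CPM (47371 to 47609.6) in Foxn11089/1089 cells.

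**Figure D1:**
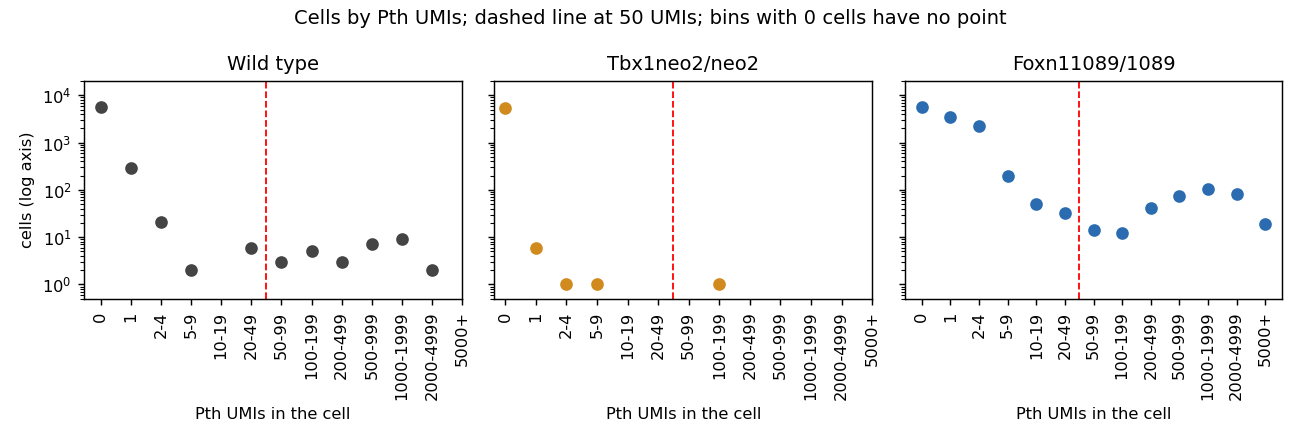
Number of kept cells (y axis, log scale) in bins of *Pth* UMIs per cell (x axis) in each library, with the limit of 50 UMIs as a dashed line and no point for an empty bin. The 29 control and 346 Foxn11089/1089 cells past the limit spread over bins up to their highest cells, 2319 and 16415 UMIs, and 1 cell of the library labelled Tbx1neo2/neo2 lies past it, at 132.

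Few cells lay near the limit. From 50 to 99 *Pth* UMIs there were 3, 0 and 14 cells, and from 20 to 49 there were 6, 0 and 32. The 3 control cells just inside had 58, 68 and 72 *Pth* UMIs among 674, 511 and 705 UMIs in all, and the first 3 just outside had 44, 33 and 31 among 613, 761 and 620. On both sides these were thus barcodes of few UMIs that gave 4.34% to 13.3% of them to *Pth*. In the Foxn11089/1089 library most cells near the limit were of this kind too, such as 52 *Pth* UMIs of 775 inside and 49 of 702 outside. Others were deep cells with a small share: 59 of 26253 UMIs (0.225%) inside and 49 of 55842 (0.0877%) outside.

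The 250 bases upstream of *Pth* and of *Chga*, the gene whose level followed *Pth* most closely, are shown because the members were high together in 1 group of cells. They were read from RefSeq on GRCm38.p6 and are written 5′ to 3′ on the strand of the gene, *Pth* from chr7:113388574-113388823 (minus strand) and *Chga* from chr12:102554691-102554940 (plus strand). Capitals mark a match to a GATA motif.
*Pth*: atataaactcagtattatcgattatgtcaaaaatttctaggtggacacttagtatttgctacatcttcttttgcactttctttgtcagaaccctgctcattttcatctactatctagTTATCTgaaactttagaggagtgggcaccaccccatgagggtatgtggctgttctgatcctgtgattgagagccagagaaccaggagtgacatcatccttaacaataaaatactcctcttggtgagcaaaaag
*Chga*: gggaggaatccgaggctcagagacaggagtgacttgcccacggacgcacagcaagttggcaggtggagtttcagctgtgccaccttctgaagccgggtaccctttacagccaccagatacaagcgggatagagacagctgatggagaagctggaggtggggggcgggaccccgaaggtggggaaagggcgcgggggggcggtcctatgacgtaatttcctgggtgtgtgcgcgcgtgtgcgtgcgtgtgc
Matches to AGATAA, bound by GATA factors, and ATGCGGGT, bound by GCM factors, were searched on both strands in windows of all 9 members. No matches in a member window overlapped. The *Pth* window held 1 GATA match, on the opposite strand, 133 to 128 bases before the start. The RefSeq window of *Gcm2* (chr13:41109989-41110238) held 1 as well, 15 to 10 bases before the RefSeq start. That window lies inside the gene as placed by the GENCODE positions given below, so the 2 annotations differ in its start. The windows of *Vdr* and *Pla2g7* and 1 of *Spp1* also lie inside their genes as so placed. Those of *Casr* and *Fam20a* overlap their genes in part. The windows of the 7 genes other than *Pth* and *Gcm2* held neither motif. Over 32851 RefSeq promoters of the same length, the GATA motif was found in 9.99% and the GCM motif in 0.207%. A match to the GATA letters is thus common and describes these letters only, not a site in use.

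*Gcm2*, the parathyroid transcription factor (ENSMUSG00000021362, chromosome 13, 41101427 to 41111035, minus strand), had nearly all of its UMIs in *Pth*-high cells. Control *Pth*-high cells held 0 to 5 *Gcm2* UMIs (median 2), and Foxn11089/1089 cells 0 to 101 (median 6). Its level was 179.7 CPM (136 to 232) and 303 CPM (293 to 312), against 0.117 CPM (0.0380 to 0.273) and 0.773 CPM (0.616 to 0.958) in other *Epcam*-positive cells of the same libraries. At least 1 UMI was seen in 79.3% and 94.2% of *Pth*-high cells. After thinning each cell to 2000 UMIs these shares were 38.5% and 41.5%, nearly equal, while in Foxn11089/1089 cells with hemoglobin, which should lack the gene, the unthinned share was 0.664% at a median of 12434 UMIs. In the library labelled Tbx1neo2/neo2 the gene had 2 UMIs in all: 1 in its only *Pth*-high cell and 1 in a cell with *Ptprc*, the leukocyte antigen CD45.

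Of 9 other transcription factors of the parathyroid and the pouch, 2 were at least 8-fold higher in *Pth*-high than in other *Epcam*-positive cells in both libraries: *Gata3* and *Tbx1*. These were 2 of the 7 with enough UMIs in the control and 2 of 8 in the Foxn11089/1089 library, where 2.88% and 2.77% of all genes passed that fold, and none was 8-fold lower. *Gata3*, needed for parathyroid development, had 1143 CPM (1029 to 1266) in control and 686 CPM (671 to 700.1) in Foxn11089/1089 *Pth*-high cells, 25.3 and 21.4 times the other *Epcam*-positive cells. *Tbx1*, the gene altered in the model, had 15.5 CPM (5.03 to 36.1) from 5 UMIs and 40.5 CPM (37.1 to 44.2) from 518, 26.4 (7.91 to 70.3) and 14.2 (12.3 to 16.4) times the other *Epcam*-positive cells. The other pouch genes were closer in both kinds of cell. *Pax9* was 2.94 (2.43 to 3.53) and 2.96 (2.88 to 3.05) times as high in *Pth*-high cells, while *Pax1*, which with *Foxn1* marks the thymic side, was 0.263 (0.193 to 0.350) and 0.326 (0.312 to 0.341) times as high, that is lower. *Eya1*, *Six4* and *Hoxa3* ranged from 2.03 to 3.75 times in the control and from 0.988 to 1.60 times in the Foxn11089/1089 library. *Gata2* (2 and 16 UMIs) and *Sox3* (0 and 3) were at the limit of detection in *Pth*-high cells.

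*Casr*, the calcium receptor (ENSMUSG00000051980, chromosome 16, 36493696 to 36562141, minus strand), was a weakly counted member. *Pth*-high cells held 0 to 6 UMIs in the control (median 0) and 0 to 26 in the Foxn11089/1089 library (median 1). Its level was 112 CPM (78.1 to 154) and 71.2 CPM (66.6 to 75.9), and at least 1 UMI was seen in 48.3% and 71.7% of the cells, or 19.2% and 11.9% after thinning. The thinned shares rest on 26 control and 337 Foxn11089/1089 cells and have no interval. No order of the libraries was read from them or from the unthinned shares. In other *Epcam*-positive cells *Casr* had 0.609, 0.255 and 0.540 CPM, and in all other cells 2, 0 and 1 UMIs in all. Outside epithelium it was thus nearly uncounted.

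*Vdr*, the vitamin D receptor (ENSMUSG00000022479, chromosome 15, 97854425 to 97910630, minus strand), was present in *Pth*-high cells at 161 CPM (120.3 to 211) in the control and 316 CPM (307 to 326) in the Foxn11089/1089 library. Cells held 0 to 8 UMIs (median 1) and 0 to 147 (median 5). Shares with a UMI were 62.1% and 92.2%, and after thinning 26.9% and 39.8%, so that the gap between libraries narrowed. With 26 control cells in the thinned share, no order was read from it. Other *Epcam*-positive cells had 0.656, 0.446 and 0.754 CPM. *Cyp24a1*, which degrades vitamin D and is a classical target of the receptor, had 0 UMIs in the *Pth*-high cells of all 3 libraries, and *Cyp27b1*, which activates vitamin D, had 0 in the control and 1 in the Foxn11089/1089 library. A count of 0 in the Foxn11089/1089 *Pth*-high cells allows a level of up to 0.235 CPM.

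Of the 13 genes listed for calcium sensing and hormone response, 3 of the 11 with enough UMIs were at least 8-fold higher in control *Pth*-high cells (*Gnas*, *Kl* and *Fgfr1*), and 2 of 11 in the Foxn11089/1089 library (*Gnas* and *Kl*). Of all genes, 2.88% and 2.77% passed that fold. *Gnas*, which encodes the G protein subunit that stimulates adenylyl cyclase, had 13751 CPM (13349.5 to 14162) and 16228 CPM (16158 to 16298), 15.0 and 9.77 times the other *Epcam*-positive cells. *Kl*, encoding Klotho, the co-receptor for the hormone FGF23, had 96.0 CPM (65.2 to 136) and 109.6 CPM (104 to 116), against 0.117 and 0.112 CPM in other *Epcam*-positive cells. *Fgfr1*, its partner receptor, had 68.2 CPM (42.7 to 103) and 48.6 CPM (44.8 to 52.5), 24.2 (14.6 to 38.4) and 5.83 (5.26 to 6.47) times as much. *Gnaq* and *Gna11*, whose G proteins carry the signal of Casr, were between 1.06 and 1.42 times the level in other *Epcam*-positive cells. *Pthlh*, the related hormone, had 0 and 27 UMIs in *Pth*-high cells, and *Pth1r*, the receptor of both hormones, had 2 and 43.

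*Chga*, encoding chromogranin A of the secretory granule (ENSMUSG00000021194, chromosome 12, 102554969 to 102565028, plus strand), was found in every *Pth*-high cell. Control cells held 12 to 896 UMIs (median 298), Foxn11089/1089 cells 5 to 4161 (median 403.5). Its level was 27264 CPM (26697 to 27839) and 14923 CPM (14857 to 14991). In other *Epcam*-positive cells it had 1.66, 0.541 and 22.1 CPM, and in all other cells 5.09, 2.58 and 18.8. Most other genes of the granule were hardly counted beside it. Of 15 further granule genes, 1 of the 5 with enough UMIs was at least 8-fold higher in control *Pth*-high cells, *Cpe*, and 0 of 8 in the Foxn11089/1089 library, where *Pcsk2* was at least 8-fold lower (1 UMI in *Pth*-high cells against 90). Over all genes, 2.88% and 2.77% were that much higher and 0.649% and 2.73% that much lower.

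*Cpe*, a carboxypeptidase that trims prohormones, had 65.1 CPM (40.3 to 99.4) and 64.1 CPM (59.7 to 68.6) in *Pth*-high cells, 19.6 (11.7 to 31.1) and 3.26 (3.01 to 3.54) times the other *Epcam*-positive cells. *Furin*, the convertase of the constitutive pathway, had 102 CPM (70.4 to 144) and 23.1 CPM (20.5 to 25.9), and *Pcsk7*, another convertase, 2 and 113 UMIs. The convertases of regulated granules were nearly uncounted: *Pcsk1* had 0 and 1 UMIs in *Pth*-high cells and *Pcsk2* 0 and 1. The other granins were as low, *Chgb* with 1 and 1 UMIs and *Scg2* and *Scg3* with 0 in both libraries. In these cells chromogranin A thus stood apart from its family in the counts.

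*Spp1*, encoding osteopontin, a secreted phosphoprotein of bone matrix (ENSMUSG00000029304, chromosome 5, 104435118 to 104441050, plus strand), varied widely among *Pth*-high cells. It had 0 to 125 UMIs per control cell (median 1) and 0 to 1193 per Foxn11089/1089 cell (median 29.5), with no UMI in 13 of 29 and 90 of 346 cells. The level was 1579.9 CPM (1446 to 1723) and 3009 CPM (2979 to 3039). Outside, other *Epcam*-positive cells had 0.492, 0.366 and 14.7 CPM.

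*Fam20a*, encoding a pseudokinase that partners the secretory kinase Fam20c (ENSMUSG00000020614, chromosome 11, 109669749 to 109722279, minus strand), had 347 CPM (286 to 417) and 541 CPM (529 to 554) in *Pth*-high cells. Cells held 0 to 11 UMIs (median 2) and 0 to 223 (median 11), and thinned shares with a UMI were 50% and 53.4%. It was also counted elsewhere, at 3.73, 3.18 and 4.38 CPM in other *Epcam*-positive cells and 3.16, 3.07 and 0.968 CPM in all other cells. *Pla2g7*, encoding the secreted acetylhydrolase of platelet-activating factor (ENSMUSG00000023913, chromosome 17, 43568098 to 43612201, plus strand), had 1009.9 CPM (903 to 1126) and 947 CPM (930.2 to 964), with 0 to 43 UMIs per cell (median 8) and 0 to 293 (median 27). Its thinned shares, 76.9% and 80.7%, were close in the libraries.

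*Spp1* lies on chromosome 5 in a cluster of genes for secreted calcium-binding phosphoproteins. Of 9 genes, namely those of that cluster with *Spp1*, the related *Sparc* and the *Fam20* kinases other than *Fam20a*, 4 of the 6 with enough UMIs were at least 8-fold higher in *Pth*-high cells in both libraries: *Spp1*, *Ibsp*, *Sparcl1* and *Fam20c*. The share of all genes past that fold was 2.88% and 2.77%. *Ibsp*, encoding bone sialoprotein, had 1208 CPM (1091 to 1334) and 1222 CPM (1203 to 1242), against 0.0703 and 1.83 CPM in other *Epcam*-positive cells. *Sparcl1*, encoding a calcium-binding matrix glycoprotein, had 1611 CPM (1475 to 1755) and 1899.6 CPM (1876 to 1924), and *Fam20c*, encoding the kinase, 276 CPM (221 to 339) and 251 CPM (242 to 259). *Sparc*, encoding osteonectin, was 7.60 (6.41 to 8.96) and 1.73 (1.69 to 1.78) times the other *Epcam*-positive cells, and *Fam20b*, a sugar kinase of the family, 3.33 (1.33 to 6.95) and 3.17 (2.85 to 3.53) times. The tooth and bone genes of the cluster were at or near 0 in *Pth*-high cells: *Dmp1* and *Mepe* had no UMI, and *Dspp* had 1 and 8. Expression of the cluster was thus uneven, with neighbours at both ends of the scale.

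*Trh*, encoding the precursor of thyrotropin-releasing hormone (ENSMUSG00000005892, chromosome 6, 92242061 to 92244650, minus strand), did not share the pattern. It had 0 UMIs in the 29 control *Pth*-high cells, so a share of cells of up to 10.3% stays possible, and 13 of the 346 Foxn11089/1089 cells did (3.76%), at 2.82 CPM (1.97 to 3.90). Other *Epcam*-positive cells of the Foxn11089/1089 library had 20.2 CPM (19.3 to 21.1), from 2167 UMIs in 315 of 4820 cells, up to 154 UMIs in 1 cell. The ratio of *Pth*-high over other *Epcam*-positive cells was 0.139 (0.0974 to 0.194) there, the reverse of the other members. In the control library other *Epcam*-positive cells had 0.820 CPM (0.571 to 1.14) from 35 UMIs in 10 cells, and in the library labelled Tbx1neo2/neo2 0.0637 CPM (0.0173 to 0.163) from 4 UMIs.

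**Figure D2:**
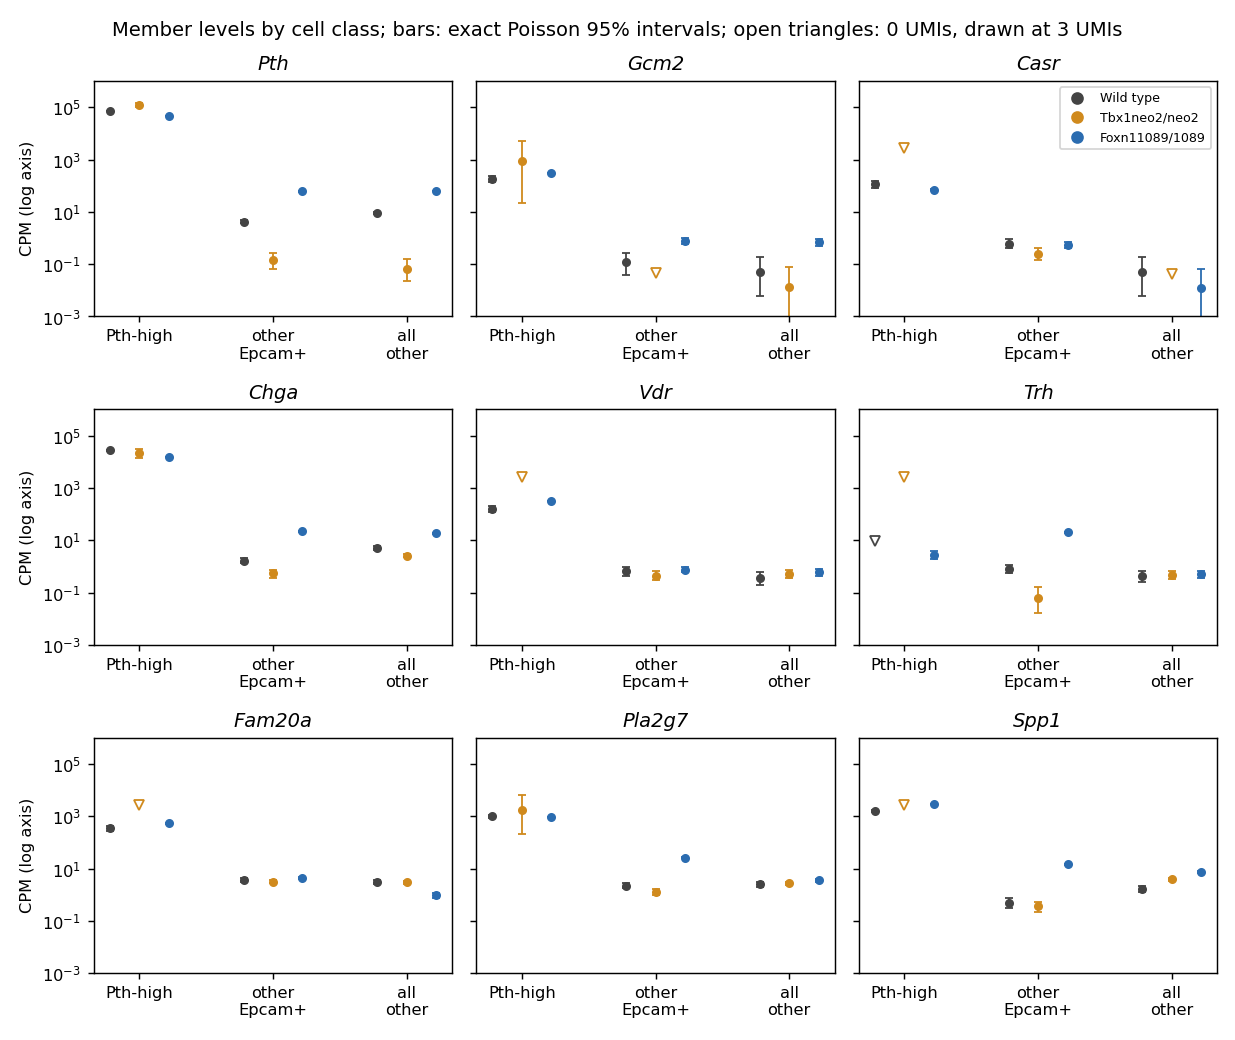
Level of each member (y axis, CPM, log scale) in *Pth*-high, other *Epcam*-positive and all other cells of the 3 libraries, with exact Poisson 95% intervals for counting error; open triangles mark 0 UMIs and are drawn at the level of 3 UMIs. In the control and Foxn11089/1089 libraries all members but *Trh* are highest in *Pth*-high cells, where *Vdr* is at 161 and 316 CPM.

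Set side by side, 8 of the 9 members were at least 8-fold higher in *Pth*-high than in other *Epcam*-positive cells in the control library and 8 of 9 in the Foxn11089/1089 library. Over all genes with at least 30 UMIs in both kinds of cell together, 2.88% of 13252 and 2.77% of 15189 passed. None of the 9 was at least 8-fold lower, while 0.649% and 2.73% of those genes were, but *Trh* in the Foxn11089/1089 library lay near that limit and was 0.109 times as high, past it, with median-of-ratios size factors. In the control the 0 *Trh* UMIs against 35 set no useful bound. The cells were chosen by *Pth* and the members with such values in view, so nothing is read from that count. The ratios in the control were 16975 for *Pth*, 16390 for *Chga*, 3211 for *Spp1*, 1534 for *Gcm2*, 444 for *Pla2g7*, 246 for *Vdr*, 183 for *Casr* and 93.1 for *Fam20a*. In the Foxn11089/1089 library they were 782, 674, 205, 391, 36.4, 419, 132 and 124 in the same order. The median log2 ratio of the members was 8.80 and 7.68, and that of all genes tested 0.58 and 0.17. The ratios of *Pth*, *Chga*, *Spp1* and *Pla2g7* were over 10 times smaller in the Foxn11089/1089 library, where the level outside the *Pth*-high cells was higher, and those of *Vdr* and *Fam20a* were larger there.

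The likeness of a gene to *Pth* was measured as the smaller of its 2 log2 ratios (control and Foxn11089/1089), over 1725 genes that reached 30 UMIs in the *Pth*-high cells of each. The 10 leading genes were *1700011M02Rik* (9.78), *Kl* (9.68), *Pth* itself (9.61), *Chga* (9.40), *Ibsp* (9.38), *Cryba2* (9.20), *Gcm2* (8.61), *Gm21541* (8.24), *Gfra2* (8.02) and *Vdr* (7.94). *Spp1* stood at rank 12, *Casr* at 14, *Fam20a* at 18 and *Pla2g7* at 33. By the correlation with *Pth* over 23 sums of cells by library and gate, which share their libraries, the leading genes were *Chga* (Pearson r = 0.963), *Gcm2* (0.903), *Spp1* (0.885), *Cryba2* (0.866), *Kl* (0.862), *Vdr* (0.859), *1700011M02Rik* (0.850), *Fbxo2* (0.848), *Spink8* (0.846) and *Casr* (0.839). These values describe the sums, and the measures used the same cells. Both lists held *Chga*, *Gcm2*, *Kl*, *Cryba2*, *Vdr* and *1700011M02Rik*.

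Of 10 further markers that the study had picked on these same libraries for its *Pth*-containing epithelial cluster, 9 were counted here, *Ccl21a* being left out because its symbol has several identifiers with near-identical copies. In the control 9 of 9 were at least 8-fold higher in *Pth*-high cells, and in the Foxn11089/1089 library 8 of 9, all but *Spink8*, beside 2.88% and 2.77% of all genes. That choice on the same samples makes these counts no independent evidence of their direction. *Npnt*, encoding the matrix protein nephronectin, had 2246 CPM (2085 to 2416) and 2788 CPM (2759 to 2817), and *Rnase4*, a secreted ribonuclease, 573 CPM (493 to 662) and 1238 CPM (1218 to 1257). *Spink8*, a protease inhibitor, was 38.1 (32.1 to 45.0) times the other *Epcam*-positive cells in the control and 5.63 (5.49 to 5.78) times in the Foxn11089/1089 library.

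Markers of other cell types were checked as whole lists in the *Pth*-high cells. Of 12 thymic epithelial genes, 0 were 8-fold higher and 4 and 5 were 8-fold lower than in other *Epcam*-positive cells, with a summed level of 499 and 364 CPM against 2552 and 1221. Over all genes, 2.88% and 2.77% were 8-fold higher and 0.649% and 2.73% 8-fold lower. The 8 genes of thyroid and C cells had no UMI in control *Pth*-high cells and 6.02 CPM in the Foxn11089/1089 library, where *Pax8* and *Foxe1* were at 0. The 7 hematopoietic genes summed to 18.6 and 35.0 CPM, with *Ptprc*, *Laptm5* and *Cd3g* at 0 in the control and *Csf1r* at 0 in the Foxn11089/1089 library. The 4 endothelial genes summed to 18.6 and 25.3 CPM, with *Pecam1* and *Cdh5* at 0 in the control, and the 7 neural crest and neuronal genes to 124 and 101, with *Th* at 0 in both. The 6 mesenchymal genes summed to 49.6 and 311 CPM, and the 6 erythroid genes to 251 and 17724 CPM. Each of these lists was lower in *Pth*-high than in other *Epcam*-positive cells of the same library. A fixed share of barcodes with the highest Scrublet doublet scores was marked, 5.13% of the control and 9.95% of the Foxn11089/1089 library. Among them were 2 of the 29 control and 79 of the 346 Foxn11089/1089 *Pth*-high cells. Of the other *Epcam*-positive cells, 197 of 2513 and 662 of 4820 were marked. The marked cells stayed in, and none was called a doublet. The 6 proliferation genes summed to 1484 and 975 CPM in *Pth*-high cells and 1292 and 1438 in other *Epcam*-positive cells, and none was 8-fold different.

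The members were next compared among *Pth*-high cells. The 346 Foxn11089/1089 cells were ordered by their share of *Pth* and cut into 3 groups of 116, 115 and 115, with shares of 0.225 to 3.47%, 3.51 to 6.23% and 6.24 to 18.6%. Levels were taken without the *Pth* UMIs. *Chga* followed *Pth*, with 10149.6, 15675 and 25413 CPM, as did *Gcm2* (258, 338 and 387 CPM) and *Pla2g7* (868, 994 and 1218 CPM). *Casr* hardly moved (73.0, 77.9 and 72.1 CPM). *Spp1* ran the other way, with 4955, 2627 and 955 CPM, as did *Vdr* (367, 348 and 240 CPM) and *Fam20a* (674, 571 and 377 CPM). *Ibsp*, the neighbour of *Spp1*, went with *Pth* instead (755, 1274 and 2235 CPM). Genes of other cells ran the same way as *Spp1*: *Hbb-y*, an embryonic globin, had 17624, 8662 and 2949.7 CPM, and *Krt5*, a keratin of thymic epithelium, 28.2, 7.02 and 3.02 CPM. The median depth was 31786, 29194 and 18621 UMIs, and the part of these differences in the ordering was not tested.

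*Fam20a* and *Vdr* also went with *Spp1*, and *Pth* against it, when *Pth*-high cells were split by *Spp1*. Cells with at least 10 *Spp1* UMIs (10 control and 200 Foxn11089/1089 cells) were set against cells with none (13 and 90). *Fam20a* was 10.7 (5.37 to 24.3) times as high in the former in the control and 2.88 (2.63 to 3.16) times in the Foxn11089/1089 library, and *Vdr* 4.32 (2.01 to 10.3) and 2.98 (2.64 to 3.38) times. *Casr* was 3.20 (1.43 to 7.87) and 1.79 (1.44 to 2.23) times as high. *Gcm2*, at 1.16 (0.646 to 2.08) and 1.16 (1.06 to 1.27) times, differed little, and *Chga* was 1.13 (1.08 to 1.18) and 0.825 (0.815 to 0.834) times. Without the cells marked by Scrublet, *Chga* in the control was 0.976 (0.931 to 1.02) times and *Gcm2* in the Foxn11089/1089 library 0.989 (0.886 to 1.11) times, so that neither differed beyond counting error. *Pth* was lower in cells with *Spp1*, at 0.697 (0.677 to 0.717) and 0.591 (0.587 to 0.594) times. *Rnase4* was 6.37 (4.16 to 10.1) and 2.27 (2.15 to 2.41) times as high and *Npnt* 2.37 (1.99 to 2.82) and 2.18 (2.10 to 2.26) times, whereas *Ibsp* was 1.22 (0.969 to 1.54) and 0.649 (0.625 to 0.675) times.

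*Pla2g7* was 3.95 (2.98 to 5.31) times as high in control cells with *Spp1* and 1.27 (1.20 to 1.33) times in Foxn11089/1089 cells, and the latter turned to 0.933 (0.878 to 0.991) without the cells marked by Scrublet. The cells differed in depth in the Foxn11089/1089 library (median 33656 UMIs with *Spp1* and 18318 without) but hardly in the control (10726 and 11608). Split instead after thinning to 2000 UMIs, with at least 2 *Spp1* UMIs (10 control and 173 Foxn11089/1089 cells) against none (14 and 134), so that both the depth and the limit changed, *Fam20a* was 3.94 (2.56 to 6.18) and 2.30 (2.15 to 2.45) times as high and *Vdr* 3.07 (1.63 to 6.01) and 2.34 (2.15 to 2.55) times. Erythroid RNA was also uneven in the Foxn11089/1089 library, at 13311 CPM in cells with *Spp1* and 52979 without, but not in the control (233 and 253 CPM). Its part in the split was not tested.

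**Figure D3:**
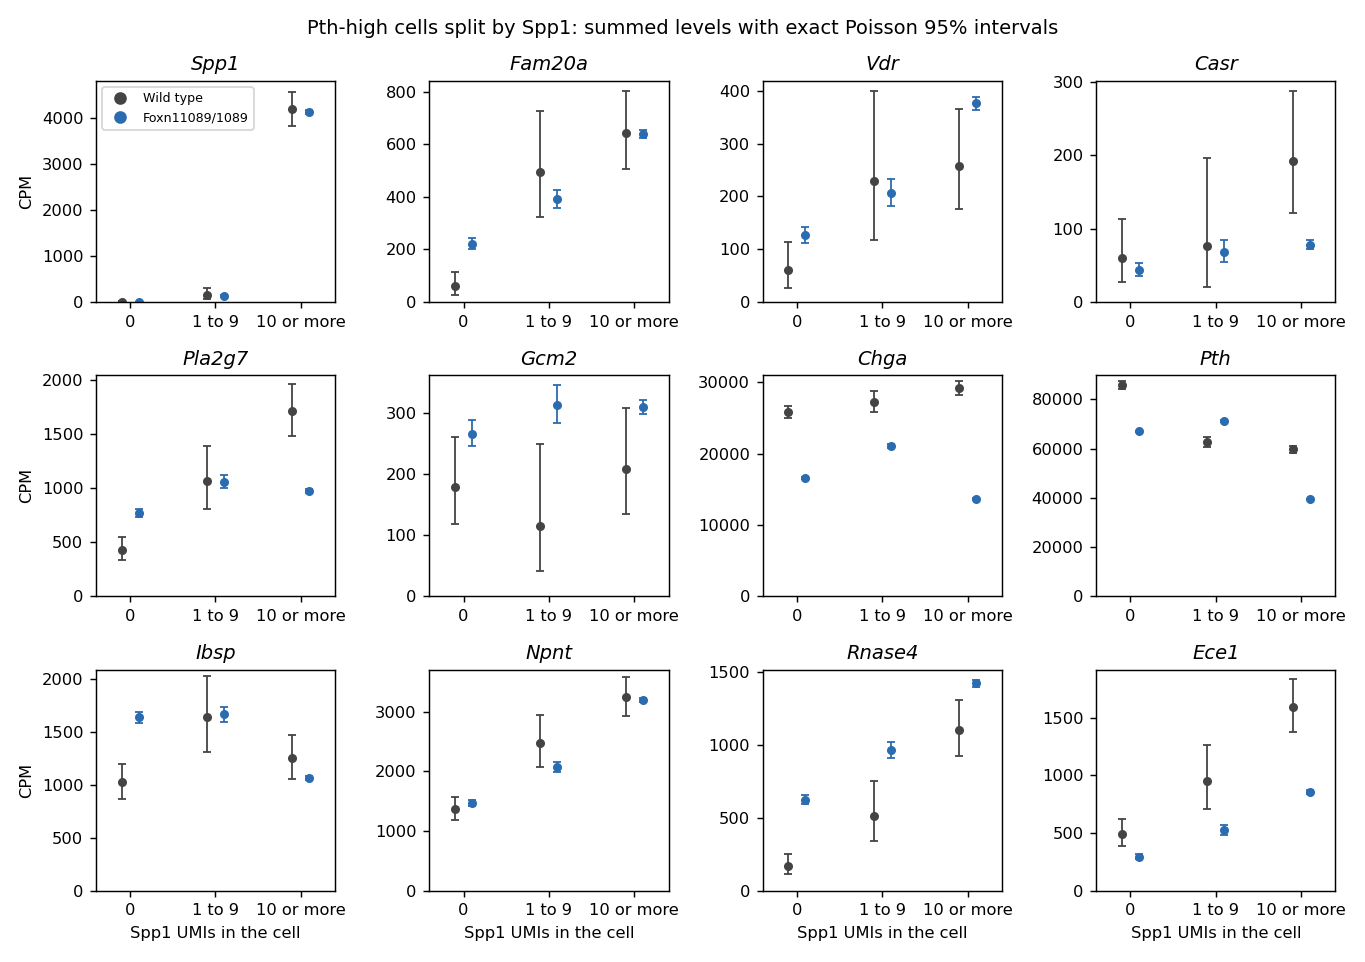
Level (y axis, CPM, with exact Poisson 95% intervals for counting error) of 12 genes in *Pth*-high cells with 0, 1 to 9 or at least 10 *Spp1* UMIs (x axis), in the control and Foxn11089/1089 libraries. From cells with none to cells with at least 10, *Fam20a* goes from 59.8 to 642 CPM in the control and from 222 to 638 in the Foxn11089/1089 library, while *Pth* goes from 85802 to 59782 and from 66991 to 39575.

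Over *Pth*-high cells of at least 2000 UMIs, rank correlations of per-cell levels were taken (26 control and 337 Foxn11089/1089 cells, which share a library and whose levels share a denominator). *Pth* and *Chga* had a Spearman rho of 0.57 and 0.69, and *Pth* and *Spp1* -0.36 and -0.46. *Fam20a* and *Spp1* had 0.78 and 0.57, *Vdr* and *Fam20a* 0.64 and 0.58, and *Vdr* and *Spp1* 0.46 and 0.55. *Pla2g7* and *Spp1* stood at 0.87 in the control and 0.22 in the Foxn11089/1089 library, and *Spp1* and *Ibsp* at 0.24 and -0.31. For *Gcm2* with *Pth* the values were 0.10 and 0.29. These are descriptions of cells of 1 library each.

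Between genotypes, the level of each member in *Pth*-high cells of the Foxn11089/1089 library was divided by that of the control. *Pth* was 0.656 (0.648 to 0.665) times the control, *Chga* 0.547 (0.536 to 0.559) and *Casr* 0.638 (0.457 to 0.917). *Gcm2* was 1.68 (1.30 to 2.22) times the control, *Vdr* 1.96 (1.49 to 2.63), *Fam20a* 1.56 (1.29 to 1.90) and *Spp1* 1.90 (1.75 to 2.08), while *Pla2g7*, at 0.938 (0.840 to 1.05), did not differ beyond counting error. None of these 8 reached 2-fold in either direction, and the ratio of *Trh*, with 0 control and 36 Foxn11089/1089 UMIs, was not determined. Of all genes, 11.2% of 11614 were at least 2-fold higher and 5.21% at least 2-fold lower, and the median gene had a log2 ratio of 0.12. *Vdr* and *Spp1*, just under the limit, passed it under some of the alternatives given in the closing section. Counting error is not the error between embryos, which 1 library per genotype cannot give, and genotype, library and embryo cannot be told apart.

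**Figure D4:**
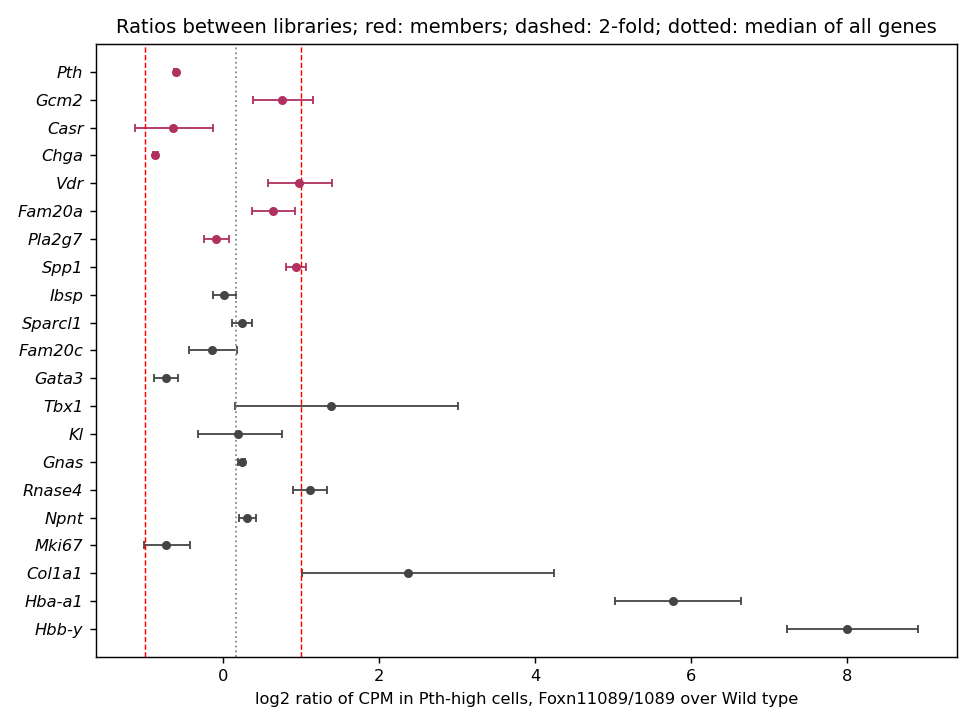
Log2 ratio (x axis) of the level in *Pth*-high cells of the Foxn11089/1089 library over the control, with exact 95% intervals for counting error, for 8 members (red) and 13 listed genes; dashed lines mark 2-fold and the dotted line the median, 0.16, of genes with UMIs on both sides. *Pth*, *Chga* and *Casr* lie below 0 and *Gcm2*, *Vdr*, *Fam20a* and *Spp1* above it, all within 2-fold, while the globin gene *Hbb-y* lies farthest to the right.

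Among the 1725 genes with at least 30 UMIs in the *Pth*-high cells of each of these libraries, a limit that leaves out the globin genes, those with the 5 highest and 5 lowest ratios differed in the same direction in all other cells. The 5 highest of these were *Tmsb4x* (4.13 times the control in *Pth*-high and 3.47 in all other cells), *Tpt1* (3.15 and 2.82), *Cox7a2l* (3.0 and 2.36), *Npm1* (2.83 and 1.15) and *mt-Co3* (2.74 and 4.01). The 5 lowest were *Gm42418* (0.0202 and 0.0270), *AY036118* (0.0374 and 0.0962), *Lars2* (0.0667 and 0.0496), *Rpgrip1* (0.0863 and 0.147) and *Slc24a5* (0.0944 and 0.260). The gap was close to 1 in all other cells for *Npm1* alone. Among the genes of the parathyroid lists above, *Tbx1* and *Rnase4* were at least 2-fold higher in Foxn11089/1089 *Pth*-high cells (2.62 (1.11 to 8.09) and 2.16 (1.87 to 2.51) times), and *Rxra*, *Furin* and *Pam* at least 2-fold lower (0.461 (0.228 to 1.09), 0.226 (0.157 to 0.334) and 0.269 (0.155 to 0.503) times). In the same cells 5 of 6 erythroid and 5 of 6 mesenchymal genes were at least 2-fold higher in the Foxn11089/1089 library, and 4 of the 9 thymic epithelial genes with enough UMIs at least 2-fold lower and 1 higher. Of all genes, 11.2% were that much higher and 5.21% that much lower. The part of these lists in the members' ratios was not tested.

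The only *Pth*-high cell of the library labelled Tbx1neo2/neo2 had 1114 UMIs and no *Epcam* UMI. It held 132 *Pth*, 24 *Chga*, 2 *Pla2g7* and 1 *Gcm2* UMIs, with 2 of *Gata3*, and none of *Casr*, *Vdr*, *Trh*, *Fam20a* or *Spp1*. At its depth, 1 UMI is worth 898 CPM, so that the absence of these genes was not interpretable. This cell was among the 4.60% of barcodes of its library that were marked for the highest Scrublet scores. Of the lists of other cell types the erythroid one had 1 UMI in it. Outside it the library had 14 *Pth* UMIs in 8 of its other kept cells, at most 6 in 1 cell.

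*Pth* RNA outside the *Pth*-high cells was counted next, since RNA shed into the suspension (free RNA) is captured with cells that do not make it. The control library had 538 such UMIs (2.25% of all its *Pth* UMIs in kept cells) and the Foxn11089/1089 library 11670 (1.89%), a like share. As a level outside, this was 6.60, 0.103 and 61.4 CPM, while *Pth*-high cells gave 285, 0.967 and 2994 *Pth* UMIs per 1000000 UMIs of their library. The order of the libraries was the same in both measures.

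In the Foxn11089/1089 library 61.0% of other *Epcam*-positive cells and 44.8% of all other cells had a *Pth* UMI, at median depths of 19726 and 11819 UMIs. After thinning the shares were 10.6% and 11.1%, which are close to each other. By gate the level was 51.9 CPM in cells with hemoglobin, 54.1 with *Ptprc*, 43.3 with the endothelial gene *Cdh5* and 56.0 with the mesenchymal gene *Pdgfra*, but 161 CPM (152 to 171) in barcodes of no gate, whose median depth was 1191 UMIs. In the control the gates had 5.07, 4.81, 8.11 and 4.82 CPM and barcodes of no gate 25. In the latter, 10 cells held 76.7% of the 202 *Pth* UMIs, among them a cell with 44, against 19.1% in the 10 highest ungated cells of the Foxn11089/1089 library. In both libraries *Pth* UMIs were thus counted in cells of every gate, and a cell with 1 of them was not read as expressing the gene.

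**Figure D5:**
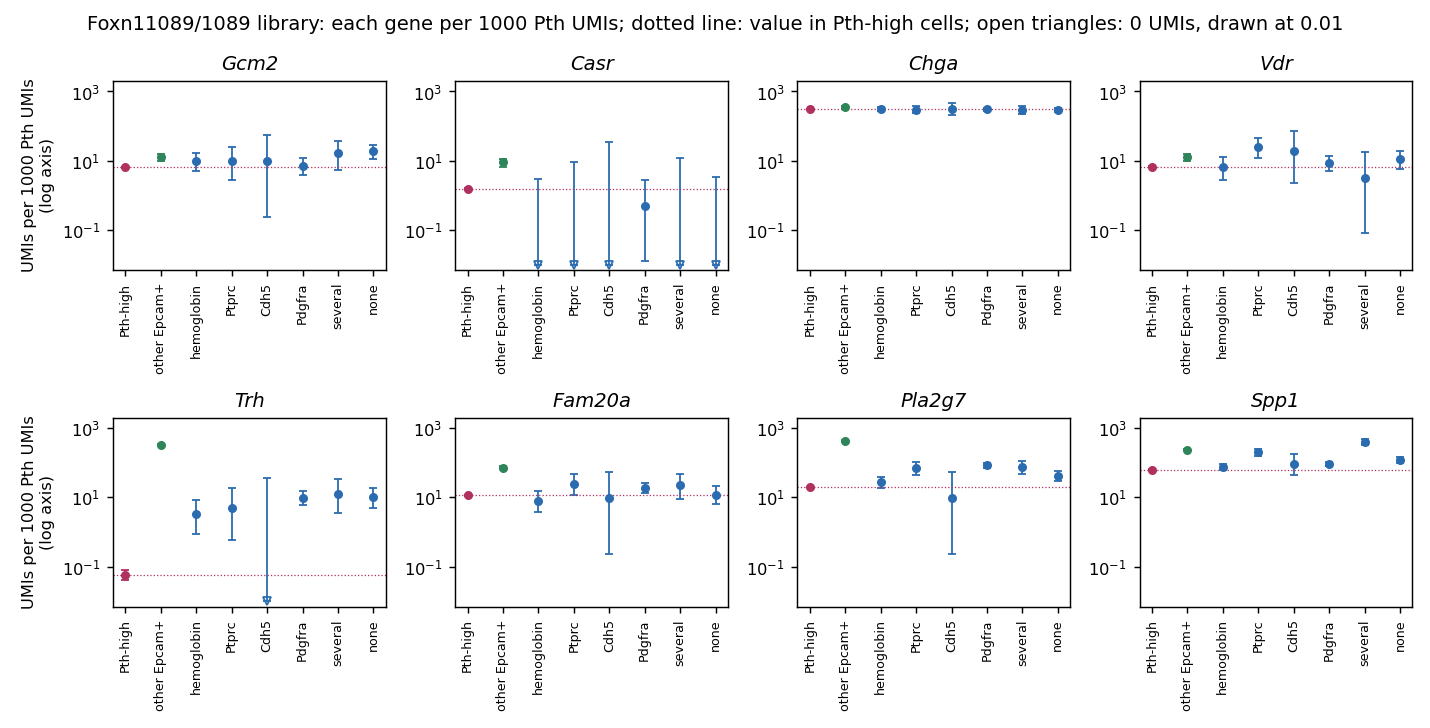
UMIs of 8 members per 1000 *Pth* UMIs (y axis, log scale, with exact 95% intervals for counting error) in *Pth*-high, other *Epcam*-positive and gated other cells of the Foxn11089/1089 library; the dotted line is the value in *Pth*-high cells, and open triangles mark 0 UMIs, drawn at 0.01. *Chga* lies at 314 in *Pth*-high cells and between 291 and 314 in the gates, while *Casr* has no UMI in any gate but *Pdgfra*.

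RNA from 1 source keeps its genes in 1 ratio, so each member was counted per 1000 *Pth* UMIs. *Chga* kept the ratio of the Foxn11089/1089 *Pth*-high cells, 314 (313 to 316), in all other cells, 302 (285 to 319.6). *Gcm2* was above its ratio, with 6.37 (6.17 to 6.58) in *Pth*-high cells and 10.9 (8.20 to 14.1) in all other cells. So was *Vdr*, with 6.66 (6.45 to 6.87) and 9.71 (7.19 to 12.8). *Casr* was below the ratio, with 1 UMI in all other cells against 7.72 at the ratio of *Pth*-high cells. *Spp1* was also above it, at 121 (111 to 132) against 63.4 (62.7 to 64.0), as were *Pla2g7*, at 58.6 (52.0 to 65.9) against 19.9 (19.6 to 20.3), and *Fam20a*, at 15.5 (12.3 to 19.4) against 11.4 (11.1 to 11.7). In other *Epcam*-positive cells *Chga*, at 365 (348 to 382), was the nearest to the ratio, and *Fam20a* (72.1 (65.5 to 79.2)), *Pla2g7* (428 (409.7 to 448)) and *Trh* (332 (316 to 349)) were far above it.

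In the control library *Chga* stood at 377 (368 to 386) per 1000 *Pth* UMIs in *Pth*-high cells, 390.1 (292 to 516) in other *Epcam*-positive cells and 556 (465 to 664) in all other cells. In 5 of the latter at least 10 *Chga* UMIs were counted. *Pth* was found in 3 of the 5 (62 UMIs), nearly all of it in barcodes of few UMIs near the limit, with 33 of 761 and 28 of 515. The summed counts of all 5 held 287 CPM of *Th* (0 in the rest), the gene for tyrosine hydroxylase of sympathetic neurons and their precursors. This sum does not show that *Th* and *Pth* were in the same cells. Without cells of at least 10 *Pth* UMIs, *Chga* in all other control cells stood at 767 (618 to 951) per 1000 *Pth* UMIs. The counts of *Gcm2*, *Casr*, *Vdr* and *Spp1* outside the control *Pth*-high cells were 7, 28, 42 and 88 UMIs in all. In the library labelled Tbx1neo2/neo2 *Pth* was nearly absent, yet *Chga* had 224 UMIs outside its *Pth*-high cell, 190 of them in cells without *Epcam*, beside 5 of *Pth*.

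Cells outside the *Pth*-high group that held several UMIs of a member were described by some of their other genes, picked after their values were seen. *Trh* was at 3 UMIs or more in 154 other *Epcam*-positive cells of the Foxn11089/1089 library and in 6 of the control. The 154 cells had 219 CPM of *Foxn1*, against 136 in the remaining *Epcam*-positive cells, 490 of *Krt5* against 198, and 384 of *Il7*, a cytokine of thymic epithelium, against 235, at a like depth (median 19173 and 19618 UMIs). Their *Pth* level was 52.9 CPM against 61.5. The *Trh* cells carried more of these picked thymic epithelial genes and no more *Pth* than the other epithelial cells. The rest of the thymic epithelial list is not given for them, so no cell type is read from these genes.

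*Pla2g7* was at 3 UMIs or more in 304 other *Epcam*-positive cells of the Foxn11089/1089 library, which had 629 CPM of *Krt5* against 156 in the rest and 91.3 of *Spp1* against 6.18. In the library labelled Tbx1neo2/neo2 it was at 3 or more in 16 cells without *Epcam*, with 900 CPM of *Csf1r*, the receptor of macrophages, against 8.69, and 1883 of *Fcer1g* against 70.4. *Spp1* reached 10 UMIs in 7 such cells of that library, with 657 CPM of *Csf1r* against 15.1. The 14 other *Epcam*-positive Foxn11089/1089 cells with at least 10 *Spp1* UMIs had 211 CPM of *Ibsp* and 761 of *Chga* against 18.7 in the rest, so that these carried genes of the *Pth*-high cells below the limit on *Pth*, at 519 CPM of *Pth* against 57.0. *Fam20a* at 3 UMIs or more was found in 27 other *Epcam*-positive cells of the library labelled Tbx1neo2/neo2, which had 186 CPM of *Gata3* against 25.6 and 161 of *Ptprc* against 27.0, and no UMI of *Foxn1*.

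Other *Epcam*-positive cells with *Casr* were described library by library, with genes that were not the same in each. The 25 other *Epcam*-positive control cells with a *Casr* UMI had no *Gcm2* UMI. Only 5 of all 2513 such control cells had one, so nothing is read from this absence. The 25 cells had more of some thymic epithelial genes, which were picked after their values were seen. These were *Psmb11*, a thymoproteasome subunit, with 352 CPM against 193 in the rest, *Prss16* with 389 against 246 and *Foxn1* with 122 against 70.3. The 14 such cells of the library labelled Tbx1neo2/neo2 had 171 CPM of *Foxn1* against 72.3 and 919 of *Ccl25*, a thymic chemokine, against 362, picked in the same way. The rest of the thymic epithelial list is not given for these cells. The 56 Foxn11089/1089 cells had 406 CPM of *Spp1* against 9.10 and 197 of *Chga* against 19.7. A single *Casr* UMI per cell set most of these groups. No gene was given for all libraries, so no difference between libraries was read from these values, and none was tested.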

How the data were processed

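Single-cell libraries of embryonic thymic lobes were compared, 1 for each of 3 genotypes. The deposited values were counts of UMIs per gene and cell barcode, which the authors made with Cell Ranger 3.0.0 on mm10 (GRCm38) before they analysed them in Seurat; no normalization was applied to the deposited counts, and the matrices held barcodes already called as cells. Groups were taken from the genotype labels, and the files held 0 further columns of samples.

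Barcodes in which 200 or more genes were detected, and in which mitochondrial UMIs made up less than 20%, were kept and sorted into *Pth*-high cells (at least 50 *Pth* UMIs), other *Epcam*-positive cells (at least 1 *Epcam* UMI) and all other cells. The last were gated as hemoglobin cells (*Alas2* and at least 10% hemoglobin UMIs) or by 1 UMI of *Ptprc*, *Cdh5* or *Pdgfra*, and cells of several gates or none were kept apart. UMIs were summed over the cells of a kind and given as CPM. Symbols with several identifiers (56) were summed. Genes with at least 30 UMIs over both sides of a ratio were compared, at limits of 8-fold between kinds of cell and 2-fold between genotypes, and a count of 0 was bounded by 3 counts. Correlation with *Pth* used log2(CPM + 1) over 23 sums of at least 20 cells. Shares of cells with a UMI were also taken after thinning cells to 2000 UMIs. The Foxn11089/1089 library, with more *Pth*-high cells and more UMIs in all, gives narrower intervals. Doublets were left in, and Scrublet scores (scanpy 1.11.5), with 0.8% of barcodes marked for each 1000 barcodes, were used in an alternative only, where 329, 265 and 1239 barcodes were left out.

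The members and gene lists were chosen with earlier results of these data known. The text names the members, the listed genes, the 10 genes most like *Pth* by each of 2 measures, and the 5 highest and 5 lowest ratios between genotypes; the genes given for cells outside the *Pth*-high group were picked after their values were seen. Positions came from GENCODE vM21 (GRCm38) and upstream sequences from RefSeq (GRCm38.p6), where all 9 members were matched. Some listed genes are not reported here. The ratio script was tested on simulated counts. In all, 16 alternatives were tried: other limits on *Pth*, *Epcam*, depth and mitochondrial share, other folds and filters, other scalings, and cells without the highest Scrublet scores. Python 3.11.15, numpy 2.4.6, scipy 1.17.1, pandas 2.3.3 and matplotlib 3.10.9 were used.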

Additional observations from a re-analysis of the deposited data

Results flagged for a closer look

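Some members lay on different sides of 1 in different libraries when other *Epcam*-positive cells were divided by all other cells, and none of these differences between libraries was tested. *Chga* was 1.18 times as high in *Epcam*-positive cells in the Foxn11089/1089 library, but 0.327 times in the control and 0.210 times in the library labelled Tbx1neo2/neo2. *Trh* was 1.88 (1.02 to 3.57) times as high in the control, from 35 against 17 UMIs, and 40.7 times in the Foxn11089/1089 library. In the library labelled Tbx1neo2/neo2 it was 0.138 (0.0356 to 0.387) times as high, from 4 against 34 UMIs. *Pla2g7* was 7.12 times as high in the Foxn11089/1089 library and 0.460 times in the library labelled Tbx1neo2/neo2. *Spp1* was 1.94 times as high in the Foxn11089/1089 library, 0.286 times in the control and 0.0933 times in the library labelled Tbx1neo2/neo2.

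Barcodes that the filters left out still held *Pth*, with 38 UMIs (36.1 CPM) in 478 barcodes of the control library and 297 UMIs (162 CPM) in 675 of the Foxn11089/1089 library. None of them reached 50 *Pth* UMIs. Their levels were above those of all other kept cells, 9.16 and 62.3 CPM.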

How the results depend on the processing

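The counts of members at least 8-fold higher in *Pth*-high cells, 8 of 9 in the control and Foxn11089/1089 libraries, were found under every one of the alternatives that gave a value. A count was taken as moved beyond 1.5 times, and another value outside its own 95% interval. Reversal was looked for only in the ratios of the split by *Spp1*, where it meant that both intervals lay on opposite sides of 1. Of 127 values recomputed for the main comparisons 24 moved. Of 610 values for single genes 137 moved and 1, from that split, reversed. The other values could not be marked as reversed. The share of *Pth*-high cells in the Foxn11089/1089 library, 6.70%, was 7.60% when *Pth* had to make up 0.5% of a cell's UMIs and 8.51% with at least 3 *Epcam* UMIs, and that of the library labelled Tbx1neo2/neo2 was 0% with at least 2000 UMIs per cell or without the highest Scrublet scores, since its only such cell was then left out. The *Pth* level in all other cells of the control, 9.16 CPM, was 5.20 with a limit of 20 *Pth* UMIs, 10.9 with 100, 5.71 with the 0.5% limit, 5.13 with at least 2000 UMIs, 7.85 without the highest Scrublet scores and 78.0 as a mean over cells. In the Foxn11089/1089 library, 62.3 CPM, the same settings gave 59.8, 65.9, 57.5, 54.0, 59.3 and 194, and 3 *Epcam* UMIs gave 68.6. In the library labelled Tbx1neo2/neo2, 0.0679 CPM, the mean over cells was 0.279. Mean levels over cells weight barcodes of few UMIs as much as deep ones.

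Of the 8 members with UMIs in both libraries 0 were 2-fold higher in Foxn11089/1089 *Pth*-high cells, but 2 with a limit of 20 *Pth* UMIs (*Vdr* and *Spp1*), 1 without the highest Scrublet scores (*Vdr*), 1 as a mean over cells (*Spp1*), 1 with median-of-ratios size factors (*Vdr*) and 4 at 1.5-fold (*Gcm2*, *Vdr*, *Fam20a* and *Spp1*), where 24.0% of all genes passed. At 1.5-fold 3 were lower (*Pth*, *Casr* and *Chga*), beside 12.7% of all genes. *Pla2g7* in Foxn11089/1089 cells with *Spp1* over those without turned from 1.27 to 0.933 without the highest Scrublet scores. Without these scores *Chga* in control cells split the same way went from 1.13 to 0.976 and *Gcm2* in Foxn11089/1089 cells from 1.16 to 0.989, and *Pla2g7* in Foxn11089/1089 over control cells went from 0.938 to 1.14 as a mean over cells. *Trh* in Foxn11089/1089 *Pth*-high over other *Epcam*-positive cells passed the 8-fold limit, at 0.109, with median-of-ratios size factors. Causes of these shifts were not tested. No paired analysis was possible because each genotype had 1 library. Counts of 36, 52 and 58 UMIs of *Casr*, *Vdr* and *Gcm2* in control *Pth*-high cells limit what depth can show there.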

Other observations

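Cells with 10 to 49 *Pth* UMIs lay below the limit that set the *Pth*-high cells. The Foxn11089/1089 library had 83, with a median of 3917 UMIs, of which 51 had *Epcam* and 13 had *Gcm2*, and their *Pth* level was 1465 CPM. Beside it they had 594 CPM of *Chga*, 576 of *Spp1*, 92.1 of *Trh*, 86.8 of *Pla2g7*, 62.9 of *Fam20a*, 23.9 of *Vdr*, 19.5 of *Gcm2* and 6.20 of *Casr*. Beside *Pth*, whose UMIs the choice of these cells kept low, every member but *Trh* was below its level in the *Pth*-high cells of that library. The control had 6 such cells, with a median of 617 UMIs and no UMI of *Gcm2*, *Casr*, *Vdr*, *Trh* or *Spp1*. A cell of 21753 UMIs among them held 20 *Pth* UMIs and 1 of *Ptprc*, and the others had at most 761 UMIs. At the depth of these others the absence of the genes was not interpretable.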
